A study of Mus musculus with 6 samples.

Results

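The transcripts described here are 30 genes that mark microglia and the macrophages at the borders of the brain. They were chosen by symbol from a list of known markers, with no measured value in the rule but with earlier results of these data known. All 30 were found among the 24391 gene symbols of the deposited count table. RNA had been measured in hemibrains of newborn mice (postnatal day 0), with 3 animals of the genotype Celf2 -/- and 3 of the genotype Celf2 +/- according to the labels. Replicates carry the numbers of the labels, 6, 7 and 11 for the heterozygous group and 2, 4 and 10 for the null group, and values are listed in that order throughout. CELF2 is an RNA-binding protein, and the control group also carries 1 lost Celf2 allele, so wild-type brain is not part of the comparison. The labels give no litter, sex, strain or form of the Celf2 allele, and the p-values measure only the spread between these samples.

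Microglia are the resident macrophages of the brain parenchyma. They arise from yolk sac progenitors that enter the brain before birth, and they depend on signalling through the receptor CSF1R, whose ligands are CSF1 and IL34. In the newborn brain they clear dying cells and take part in synapse removal, to which complement C1q contributes as a tag. Macrophages of a second kind sit in the meninges, around vessels and in the choroid plexus, and share many genes with microglia while also making the mannose receptor MRC1. The transcription factor PU.1, encoded by Spi1, binds purine-rich elements with a GGAA core in the control regions of many macrophage genes.

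Promoters are shown because the members are genes of 1 cell lineage and because Siglech, P2ry13 and the C1q genes recur in the results below. Of the 30 members, 24 had a promoter in the RefSeq table (build GRCm38.p6), in 26 records, and each record ran from 250 bases before to 50 bases after the annotated start. The last 30 bases of 24 records were found in a GENCODE transcript of the same gene and strand; those of P2ry12 and of 1 of the 2 records of Lgmn were not, and neither of these holds the letters searched for or is printed. The letters GAGGAAG, a core to which PU.1 is known to bind, were searched on both strands, and every match of the longer form GAGGAAGT is also counted for the shorter one. GAGGAAG was present for 11 of the 24 members (45.8%), against 4152 of all 27025 genes in the table (15.4%) and 1884 of the 11912 tested here that had a record (15.8%). GAGGAAGT was present for 4 of 24 (16.7%), against 3.69% of all genes. A match of letters is a description and shows no binding. The 13 matches in the 11 promoters follow, each read on the strand that spells GAGGAAG, with that core in capitals, 10 bases on either side and the distance of its centre from the annotated start; the 4 that extend to GAGGAAGT stand first.
C1qc, 191 bases upstream: gtgccaaaatGAGGAAGtgtctgccgt
Cd53, 10 bases downstream: cgagaagagtGAGGAAGtgagactgag
Ctss, 2 bases downstream: catccacaatGAGGAAGtgaactttca
Pf4, 6 bases upstream: gatacaggatGAGGAAGtgctctgcag
P2ry13, 45 bases upstream: aaggggaaatGAGGAAGgaaaagcagt
Fcrls, 141 bases upstream: agtctgtaaaGAGGAAGgacgtttgct
Trem2, 38 bases upstream: gtgagggaggGAGGAAGgaaaggaggc
Cd33, 223 bases upstream: agtggaatggGAGGAAGccacaaagaa
Itgam, 81 bases upstream: ttttctcccgGAGGAAGgctacagagg
Itgam, 34 bases downstream: cagacactttGAGGAAGccaccaaggc
Laptm5, 36 bases upstream: gaacaaaaaaGAGGAAGccacaggctg
Mrc1, 165 bases upstream: taaggcacagGAGGAAGgggagagagg
Mrc1, 33 bases upstream: aaggaggacaGAGGAAGctgtcccttt

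The 250 bases upstream of the start are given for 3 members, 5′ to 3′ on the strand of the gene. Capitals mark GAGGAAG or, in C1qc, its reverse complement. Siglech has no match in this window.
P2ry13, chr3:59210883-59211132, minus strand: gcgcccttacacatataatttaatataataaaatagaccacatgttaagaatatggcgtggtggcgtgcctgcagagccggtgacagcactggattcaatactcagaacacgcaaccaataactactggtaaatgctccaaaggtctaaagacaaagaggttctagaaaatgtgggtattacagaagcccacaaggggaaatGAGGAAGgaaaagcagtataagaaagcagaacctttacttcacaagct
Siglech, chr7:55767934-55768183, plus strand: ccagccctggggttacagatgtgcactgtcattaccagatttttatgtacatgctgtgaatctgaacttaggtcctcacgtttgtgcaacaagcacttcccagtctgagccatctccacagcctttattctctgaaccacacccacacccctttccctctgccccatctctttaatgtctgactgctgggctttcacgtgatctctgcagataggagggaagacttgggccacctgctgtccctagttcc
C1qc, chr4:136892915-136893164, minus strand: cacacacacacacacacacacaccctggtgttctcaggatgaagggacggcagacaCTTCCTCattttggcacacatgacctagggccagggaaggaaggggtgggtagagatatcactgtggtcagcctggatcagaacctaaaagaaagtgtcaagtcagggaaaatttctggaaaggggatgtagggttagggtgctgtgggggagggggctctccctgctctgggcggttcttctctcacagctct

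Library totals lay between 28831997 and 36531980 counts. The members together took 0.0239% to 0.0319% of the counts, or 251 to 313 CPM (counts scaled by library size and TMM factor), and single members had between 10 and 3069 counts in a library. As a check of the tissue label, 8 neuronal markers summed to 6546 to 7329 CPM. Celf2 itself was at 459, 403 and 362 CPM in heterozygous libraries and at 448, 390 and 331 CPM in libraries labelled null (exact two-sided permutation p = 0.7, where 0.1 is the smallest possible). A count per gene cannot tell an intact transcript from a mutant one, so it is no check of the genotypes, and all directions depend on the labels. Some libraries stood apart: in null replicate 2 the share of counts on Rn45s, a precursor of ribosomal RNA, was 11.8%, and it was at most 1.27% elsewhere. The 16 Hox genes of hindbrain and spinal cord summed to 21.4, 202 and 10.65 CPM in heterozygous libraries, with replicate 7 far above the rest. In libraries labelled null they summed to 3.78, 7.23 and 3.67 CPM, each below every heterozygous library. The part of this difference between hemibrains in the values of the members was not tested. Null replicates 4 and 10 and heterozygous replicate 7 had 0 counts of the Y-linked gene Ddx3y.

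Compared per kilobase of gene model, the members spanned more than 2 orders of magnitude. Lgmn, which encodes the lysosomal protease legumain and is also made outside macrophages, was highest at a mean of 42.2 CPM per kilobase over the 6 libraries. The 3 chains of complement C1q followed, with C1qc at 15.8, C1qb at 15.7 and C1qa at 12.4 CPM per kilobase. Tyrobp, the signalling adaptor DAP12, was at 7.25, the platelet factor 4 gene Pf4 at 7.17 and the growth factor receptor Csf1r at 7.13 CPM per kilobase. The lowest were Ptprc, the leukocyte phosphatase CD45, at 0.357 and the nucleotide receptor P2ry13 at 0.438 CPM per kilobase. Only 6.69% of the genes tested had a lower level per kilobase than Ptprc, whereas 68.5% had a lower level than C1qc. In bulk samples such as these, fewer cells of a type and less RNA per cell cannot be told apart.

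**Figure D1:**
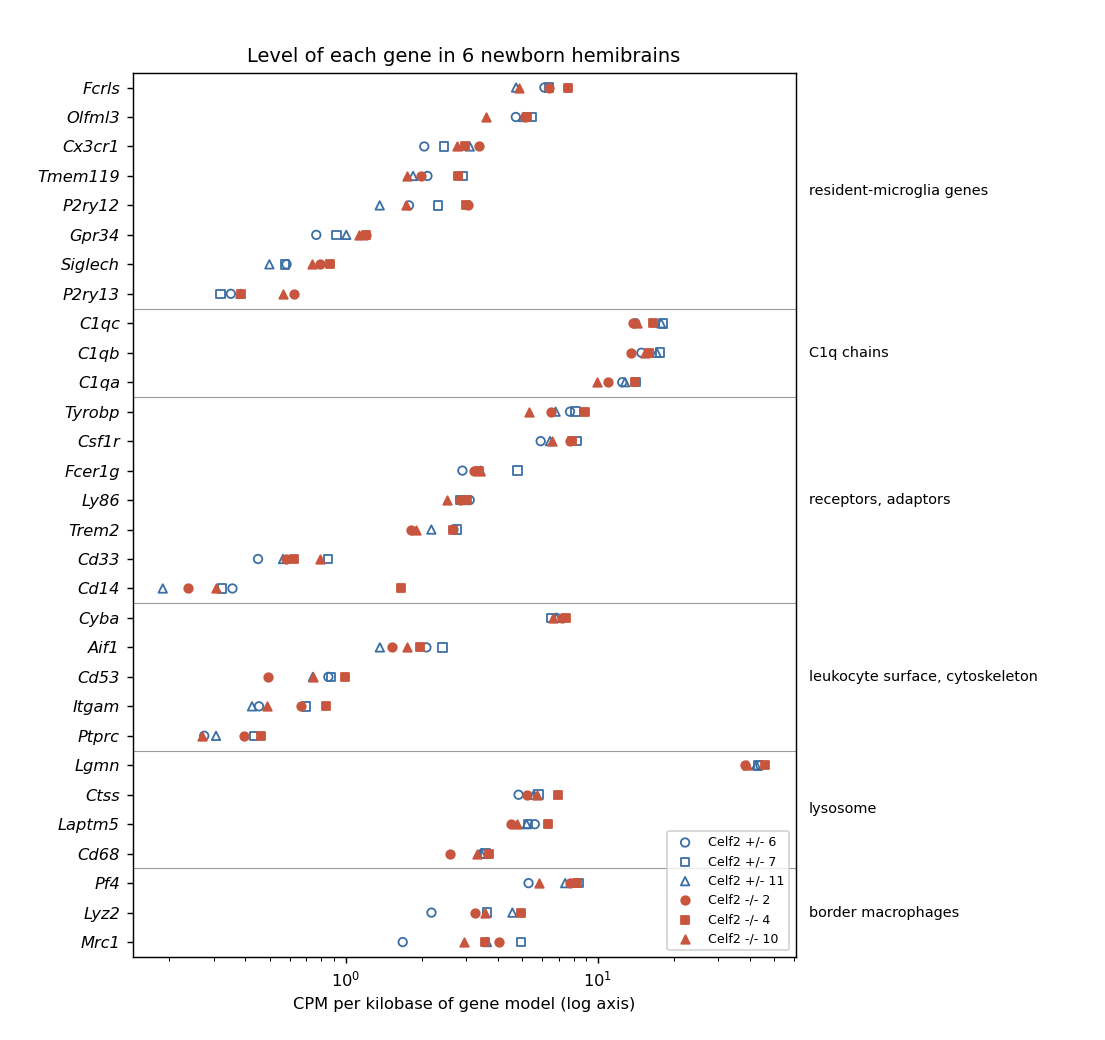
Level of each of the 30 genes in the 6 libraries, in CPM per kilobase of gene model on a log axis, ordered by role and level; open blue symbols are Celf2 +/- libraries and filled red symbols libraries labelled Celf2 -/-. Lgmn (mean 42.2) and the C1q chains (12.4 to 15.8) stand above the rest, and the symbols of both groups intermix for most genes.

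No member passed the test of a difference between the genotypes after adjustment over all genes. Of the 30 members, all kept by the filter on low counts, edgeR's quasi-likelihood test called 0 higher and 0 lower at an adjusted p of 0.05, beside 1 of 15925 genes overall (0.00628%). DESeq2 and limma-voom also called 0 members. At an unadjusted p of 0.05, 1 member was higher in libraries labelled null (3.33% of members, against 4.13% of all genes) and 0 were lower (against 2.93%). In 3 members, or 10% of the list, every library labelled null lay above every heterozygous library (against 6.21% of all genes), and in 0 members did it lie below (against 6.47%). Fold changes were negative for 14 of 30 members (46.7%, against 50.3% of all genes), and their median log2 fold change was 0.050, against -0.001 over all genes tested. The 95% interval lay within 2-fold in either direction for 26 of the 30 members and within 1.5-fold for 14. The other 4, Cd14, P2ry12, P2ry13 and Siglech, had intervals that reached beyond a 2-fold higher level.

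**Figure D2:**
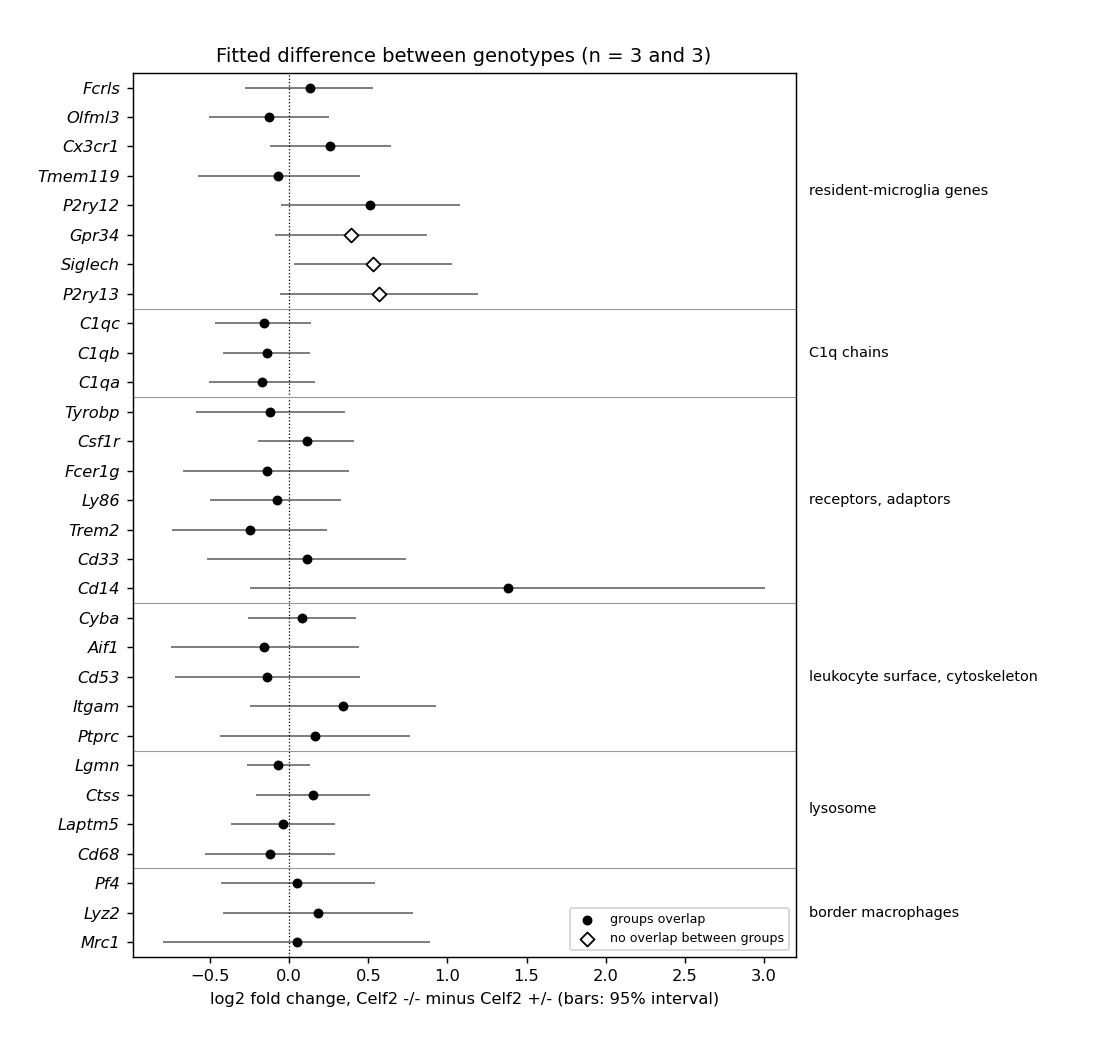
Fitted log2 fold change of each gene, null minus heterozygous, with its 95% interval (n = 3 and 3); open diamonds mark the 3 genes whose groups did not overlap. Intervals of 29 of the 30 genes include 0, the exception being Siglech, and that of Cd14 is the widest.

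Among 8 genes of resident microglia, 6 had positive fold changes, with a median of 0.327, and none passed (0 of 8, smallest edgeR adjusted p = 0.682). Siglech, a receptor of the Siglec family used to tell microglia from other macrophages, was at 1.40, 1.38 and 1.20 CPM in heterozygous libraries and at 1.89, 2.07 and 1.77 CPM in libraries labelled null. All 3 null values lay above all heterozygous ones, and the counts behind them were 52, 41 and 42 against 48, 70 and 52. For Siglech the fitted log2 difference was 0.53 with an SE of 0.23 and a 95% interval of 0.03 to 1.03 (edgeR unadjusted p = 0.0399, adjusted p = 0.682). In 10 of the 17 alternative analyses its unadjusted p was above 0.05: it was 0.108 with library size alone, 0.0954 with the DESeq2 Wald test and 0.0724 with a Y-linked covariate, and it lay between 0.0514 and 0.113 without any 1 of the 6 libraries (edgeR). P2ry13, a receptor for ADP, was at 0.888, 0.808 and 0.969 CPM against 1.58, 0.978 and 1.43 CPM. The groups were again separate, although null replicate 4 exceeded heterozygous replicate 11 by little, and single libraries held 24 to 42 counts (log2 fold change 0.57, SE 0.29, edgeR adjusted p = 0.746). Gpr34, a receptor for lysophosphatidylserine, was at 1.45, 1.75 and 1.91 CPM against 2.29, 2.28 and 2.14 CPM (0.39, SE 0.22, edgeR adjusted p = 0.779).

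Some of these genes share their place in the genome with others. RefSeq places P2ry12 and P2ry13 inside the span of Med12l on chromosome 3 and Gpr34 inside that of Cask on the X chromosome, in each case on the opposite strand. Siglech on chromosome 7 overlaps a long non-coding RNA gene, and 9 of the 30 members overlap some other annotated gene. The strand setting of the counting is not given, so reads from such a pair may not be told apart. Looked up after the members' values were seen, Cask, a scaffold kinase of synapses, was at 220, 228 and 217 CPM in heterozygous libraries and at 243, 264 and 240 CPM in libraries labelled null. Its groups did not overlap, in the same direction as Gpr34 (log2 fold change 0.17, SE 0.07, edgeR adjusted p = 0.639). Med12l was at 35.2, 34.7 and 38.4 CPM against 35.1, 40.0 and 40.9 CPM, with overlapping groups (0.10). The part of these host genes in the values of P2ry12, P2ry13 and Gpr34 was not tested.

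P2ry12, the ADP receptor by which microglial processes find injured cells, was at 4.17, 5.42 and 3.19 CPM against 7.13, 6.99 and 4.05 CPM. Null replicates 2 and 4 were above every heterozygous library, while null replicate 10 lay below heterozygous replicates 6 and 7 (log2 fold change 0.51, SE 0.26, edgeR adjusted p = 0.742). Cx3cr1, the receptor of the neuronal chemokine CX3CL1, was at 7.69, 9.22 and 11.7 CPM against 12.7, 11.1 and 10.4 CPM (0.26, SE 0.17). Its highest heterozygous value exceeded all but 1 of the null values. Fcrls, an Fc receptor-like gene and the member of this group with the highest level per kilobase, was at 12.2, 12.8 and 9.43 CPM against 12.8, 15.1 and 9.66 CPM (0.13, SE 0.18). The microglial membrane protein gene Tmem119 was at 4.39, 6.06 and 3.85 CPM against 4.14, 5.81 and 3.64 CPM (-0.07, SE 0.23). Olfml3, a secreted olfactomedin-like protein of microglia, was at 8.20, 9.53 and 8.77 CPM against 8.90, 9.07 and 6.22 CPM (-0.13, SE 0.17). Both Tmem119 and Olfml3 had overlapping groups and their lowest value in null replicate 10.

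The chains of C1q, which together form the recognition unit of the classical complement pathway, had negative fold changes in all 3 genes and none passed. RefSeq places C1qb, C1qc and C1qa side by side on chromosome 4. C1qa was at 13.5, 15.3 and 13.8 CPM in heterozygous libraries and at 11.8, 15.2 and 10.7 CPM in those labelled null (-0.17 on the log2 scale, SE 0.15, edgeR adjusted p = 0.883). C1qb was at 15.8, 18.7 and 18.2 CPM against 14.4, 16.8 and 16.3 CPM (-0.14, SE 0.12). C1qc was at 14.8, 19.1 and 18.7 CPM against 14.5, 17.5 and 15.1 CPM (-0.16, SE 0.14). Null replicate 4 lay inside the heterozygous range for each chain, and null replicate 2 lay below it. The 95% interval was -0.51 to 0.16 for C1qa, -0.42 to 0.13 for C1qb and -0.47 to 0.14 for C1qc. As folds, the lower bounds were 0.704, 0.749 and 0.724.

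Differences between the role groups were also taken within each library. The mean log2 CPM of the C1q chains exceeded that of the 8 resident genes by 2.00, 2.07 and 2.18 in heterozygous libraries and by 1.46, 1.74 and 1.80 in libraries labelled null. The 4 lysosomal genes exceeded the resident genes by 1.87, 1.73 and 1.87 and by 1.25, 1.66 and 1.70. Both differences were smaller in each library labelled null than in any heterozygous library, and null replicate 2 had the smallest in both. The resident genes are in both, so these are not separate observations. The other 3 groups set against the resident genes overlapped between genotypes: for border macrophage genes the difference was 0.16, 0.94 and 1.02 in heterozygous libraries and 0.52, 0.68 and 0.59 in libraries labelled null. Of the 15 pairs that the 6 role groups allow, 3 did not overlap. The pairs share lists, so they too are not separate observations, and no such share was taken over other gene lists. The last of the 3 was signalling genes against C1q, at -2.34, -2.32 and -2.62 against -2.29, -2.04 and -2.30. The signalling genes include Cd14, which deviated by 1.96 from its own mean in null replicate 4, and the difference without Cd14 was not taken. Lgmn is also made outside macrophages, and the resident genes P2ry12, P2ry13 and Gpr34 share their place with host genes. Gene models of the C1q chains are 1054 to 1082 bases long and those of the resident genes 1736 to 3753. Null replicate 2 also had 11.8% of its counts on Rn45s. The part of any of these in the differences was not tested. These are descriptions of lists chosen with earlier results known, and no test is given.

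Receptors and adaptors of macrophage signalling had a median log2 fold change of -0.085, with 3 of 7 positive and none passing. Csf1r was at 23.0, 31.9 and 25.0 CPM against 29.9, 30.6 and 25.4 CPM (0.11, SE 0.14, 95% interval -0.20 to 0.41). Trem2, a lipid-sensing receptor of phagocytes, was at 3.07, 3.16 and 2.51 CPM against 2.09, 3.05 and 2.18 CPM (-0.25, SE 0.22, edgeR adjusted p = 0.888). Its partner adaptor Tyrobp was at 4.39, 4.61 and 3.85 CPM against 3.70, 5.04 and 3.03 CPM (-0.12, SE 0.21). For Trem2, null replicates 2 and 10 lay below every heterozygous library and null replicate 4 inside their range; for Tyrobp, null replicate 4 was the highest of the 6. Fcer1g, the Fc receptor gamma chain, was at 1.91, 3.16 and 2.25 CPM against 2.13, 2.22 and 2.24 CPM (-0.14). Cd33, an inhibitory sialic acid receptor, had a log2 fold change of 0.11, and Ly86, the partner MD-1 of the receptor RP105, one of -0.08, both with overlapping groups.

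Cd14, the co-receptor for bacterial lipopolysaccharide, had the largest fitted change among the members, and it came from 1 library. It was at 0.592, 0.539 and 0.313 CPM in heterozygous libraries and at 0.394, 2.76 and 0.510 CPM in libraries labelled null. Null replicate 4, with 93 counts, stood above all the others, which had 10 to 22. The fitted log2 difference was 1.38, with an SE of 0.71 and a 95% interval of -0.25 to 3.01 (edgeR adjusted p = 0.767), and it was -0.08 without null replicate 4. In the same library 12 immediate-early genes summed to 1166 CPM, against 122 to 446 CPM in the others, and the chemokine genes Ccl2 and Cxcl10, named after their values were seen, had 99 and 89 counts. Elsewhere Ccl2 had 0 to 10 counts and Cxcl10 had 1 to 12. The part of that response in the value of Cd14 was not tested.

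**Figure D3:**
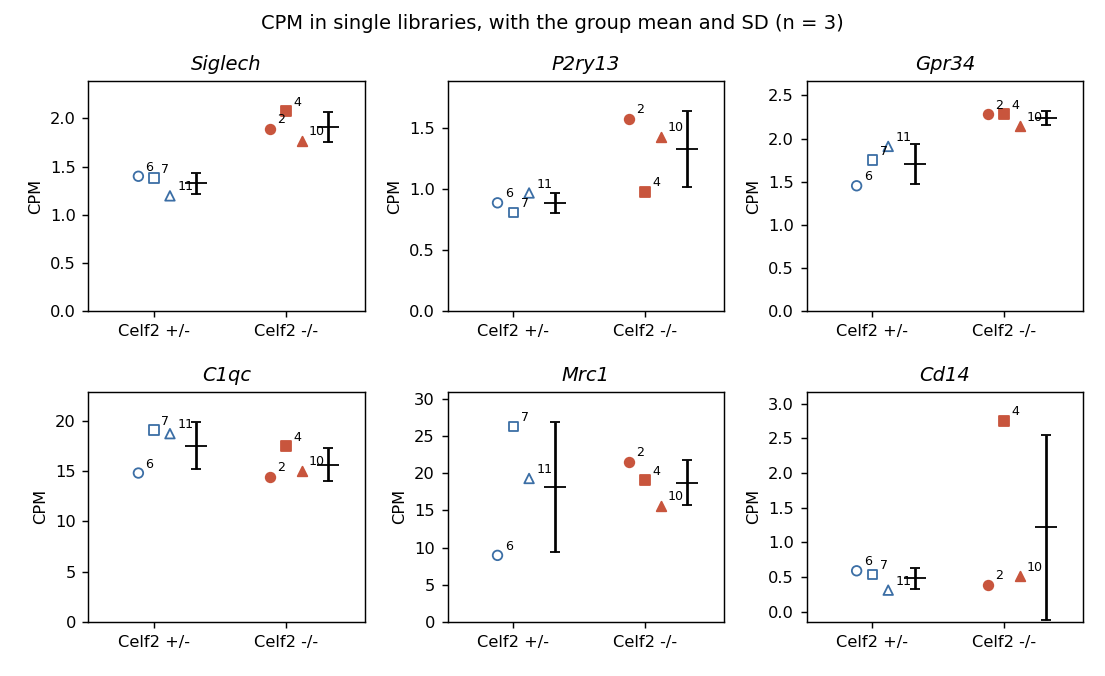
CPM of 6 genes in single libraries, numbered by replicate, with group mean and SD beside them (n = 3 each). Siglech, P2ry13 and Gpr34 show separate groups at low levels, C1qc overlaps, Mrc1 is lowest in heterozygous replicate 6, and Cd14 is high in null replicate 4 only, where the SD bar of the group reaches below 0.

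Leukocyte surface and cytoskeletal genes overlapped between the groups in all 5 cases, with a median of 0.080. Itgam, the integrin chain CD11b that binds cleaved complement C3, was at 2.13, 3.27 and 1.99 CPM against 3.11, 3.91 and 2.28 CPM (0.34, SE 0.27, edgeR adjusted p = 0.867). Cyba, a subunit of the NADPH oxidase, was the most even of the group at 5.19, 4.95 and 5.18 CPM against 5.48, 5.69 and 5.03 CPM (0.08, SE 0.16). Ptprc was at 1.56, 2.46 and 1.74 CPM against 2.25, 2.61 and 1.53 CPM (0.16). The tetraspanin Cd53 was at 2.39, 2.46 and 2.08 CPM against 1.38, 2.79 and 2.07 CPM (-0.14). Aif1, the actin-bundling protein IBA1 by which microglia are commonly stained, was at 1.83, 2.12 and 1.20 CPM against 1.34, 1.72 and 1.53 CPM (-0.16, SE 0.27).

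The 4 lysosomal members had fitted log2 changes between -0.12 and 0.15, with a median of -0.053, and 0 passed. Lgmn was at 82.6, 80.9 and 79.4 CPM against 71.9, 86.4 and 73.3 CPM (-0.07, SE 0.09, 95% interval -0.27 to 0.13). Ctss, the cysteine protease cathepsin S, was at 6.59, 7.91 and 7.58 CPM against 7.13, 9.48 and 7.82 CPM (0.15, SE 0.16, edgeR adjusted p = 0.918). Null replicate 4 was the highest library for both. Cd68, a lysosomal membrane glycoprotein of phagocytes, was at 4.33, 4.48 and 4.30 CPM against 3.23, 4.62 and 4.15 CPM (-0.12). The lysosomal membrane protein gene Laptm5 was at 13.5, 12.7 and 12.5 CPM against 10.9, 15.3 and 11.4 CPM (-0.04).

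Genes that mark border macrophages ranged widely among heterozygous libraries, and 0 of 3 passed. Mrc1, singled out after its values were seen, was at 8.96, 26.3 and 19.3 CPM in heterozygous libraries and at 21.6, 19.1 and 15.6 CPM in null libraries (a log2 difference of 0.05, SE 0.36, 95% interval -0.80 to 0.89). Lyz2, the lysozyme of phagocytes, was at 2.31, 3.84 and 4.84 CPM against 3.43, 5.22 and 3.77 CPM (0.18, SE 0.27, edgeR adjusted p = 0.949). Pf4, a chemokine made by border macrophages and megakaryocytes, was at 3.12, 4.95 and 4.36 CPM against 4.57, 4.86 and 3.43 CPM (0.05, SE 0.22). Heterozygous replicate 6 was the lowest library for each of the 3. The 8 meningeal markers were lowest there too: they summed to 375 CPM in that library and to between 555 and 871 CPM in the others, with the collagen gene Col3a1 at 58.5 CPM against 114 to 156 CPM. The part of the amount of meninges in these values was not tested. The log2 fold change of Mrc1 was -0.28 without heterozygous replicate 6 and 0.41 without heterozygous replicate 7, the lowest and highest values over all alternatives.

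Across the list, high values gathered in 1 library of each genotype. Null replicate 4 was the highest library for 13 members and heterozygous replicate 7 for 12, whereas null replicate 10 and heterozygous replicate 11 were highest for 0. The members deviated from their own means by -0.16, 0.13 and -0.09 on the log2 scale in heterozygous libraries, on average, and by -0.03, 0.26 and -0.12 in libraries labelled null. In null replicate 4, 27 of 30 members were above their mean, and in null replicate 10, 24 of 30 were below. The mean of null replicate 4 includes Cd14, which deviated by 1.96. Over all genes tested, the median deviation lay between 0.00 and 0.01 in every library. That is a median, which the scaling of libraries holds near 0, so it is no background for the member means. Genes above or below their mean were not counted over the whole table. Heterozygous replicate 7 had 23 of 30 above, so each group held 1 library with mostly higher values.

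**Figure D4:**
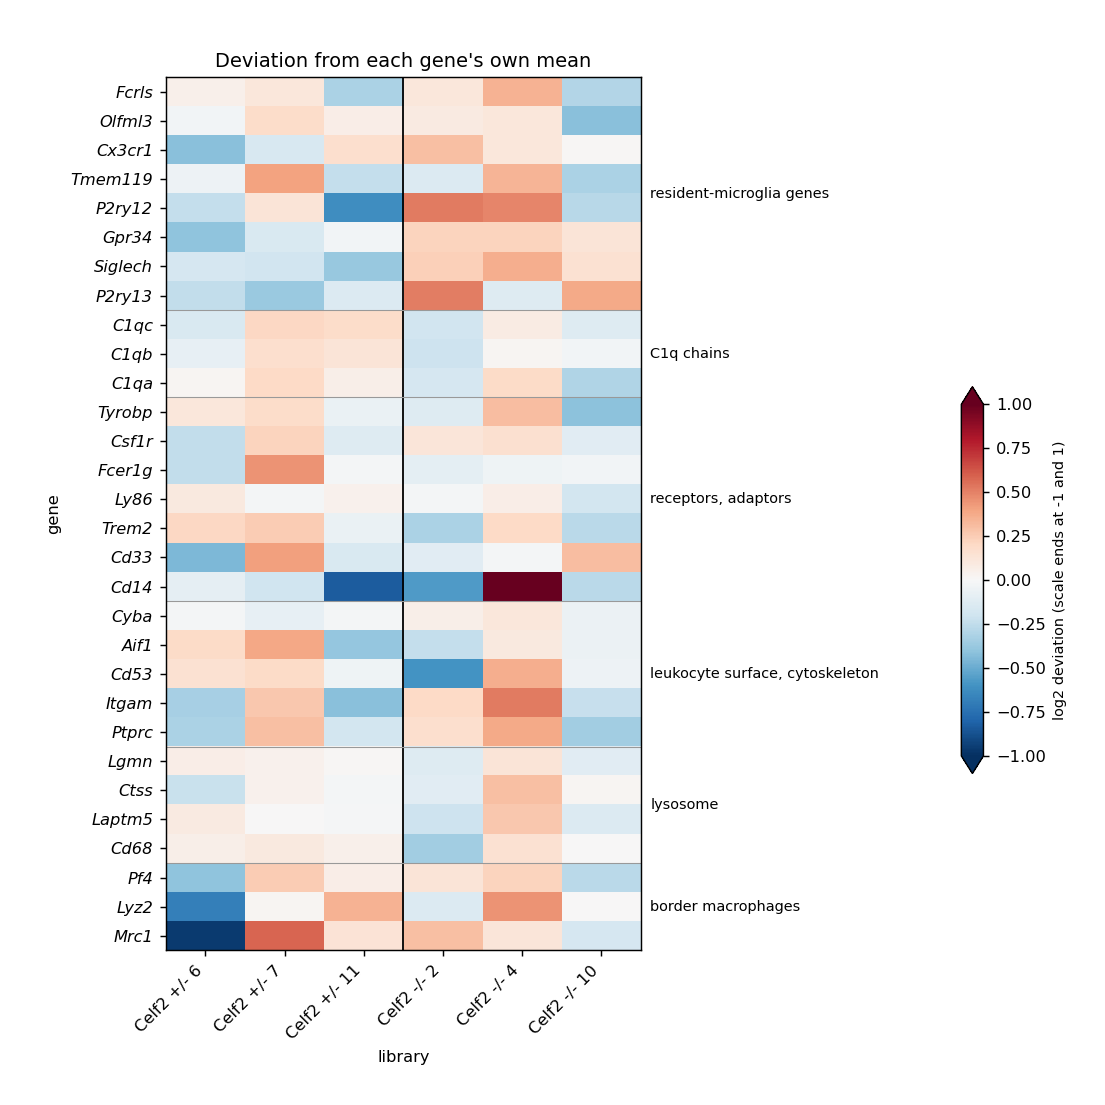
Log2 deviation of each gene from its own mean over the 6 libraries, blue for lower and red for higher, with a line between the genotypes. Null replicate 4 is mostly red (27 of 30 genes above their mean), null replicate 10 mostly blue (24 of 30 below), and heterozygous replicate 6 is darkest blue for Mrc1 and Lyz2.

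Of 11 transcription factors known from microglia 0 passed, with 8 positive fold changes and a median of 0.105. The smallest p belonged to Bhlhe41 (log2 fold change -0.31, edgeR adjusted p = 0.728) and Cebpa (0.30, edgeR adjusted p = 0.804). Spi1 was at 0.01 and the interferon regulatory factor gene Irf8 at 0.17. Of 12 ligands and survival cues 0 passed (median -0.044). Per kilobase, Csf1 was at 3.08 and Il34 at 2.64 CPM against 7.13 for their receptor Csf1r, and Cx3cl1 at 33.4 against 2.79 for Cx3cr1. Cx3cl1 was at 110, 111 and 115 CPM in heterozygous libraries and at 86.1, 111 and 96.4 CPM in libraries labelled null (-0.20, SE 0.09, edgeR adjusted p = 0.728). Tgfbr1, a receptor for the TGF-beta that microglia depend on, was at 82.2, 81.8 and 83.2 CPM against 85.9, 92.2 and 101 CPM, without overlap (0.18, SE 0.08, edgeR adjusted p = 0.718). Both genes are also made by other brain cells.

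Further genes of microglia, 31 of which were tested, were evenly divided in sign, with 15 positive and 16 negative fold changes and a median of -0.006. In 3 of them every library labelled null lay below every heterozygous library (against 6.47% of all genes), and in 0 did it lie above (against 6.21%). At an unadjusted edgeR p of 0.05, 2 were lower (against 2.93% of all genes) and 0 higher (against 4.13%), and 0 passed after adjustment. The inhibitory collagen receptor gene Lair1 was at 2.42, 2.29 and 2.79 CPM against 1.66, 1.93 and 1.67 CPM, without overlap (-0.51, SE 0.21, edgeR adjusted p = 0.659), and Rgs10, a regulator of G protein signalling, had a log2 fold change of -0.34 (edgeR adjusted p = 0.690). Of 15 genes of the growth-associated state that microglia take in young white matter, 13 were tested and 0 passed (median -0.040), with the smallest p for Cd63 (-0.16) and the protease gene Ctsd (-0.09). Of 16 further genes of border macrophages, 11 were tested and 0 passed (median -0.010). Clec10a, a lectin of such macrophages, was at 0.646, 0.471 and 0.741 CPM against 0.118, 0.326 and 0.408 CPM on 3 to 26 counts (-1.09, SE 0.44, edgeR adjusted p = 0.651). Apoe, which astrocytes also make at high levels, was at 695, 700 and 641 CPM against 429, 573 and 551 CPM (-0.39, SE 0.10, edgeR adjusted p = 0.488). In both of these every library labelled null lay below every heterozygous library (2 of 11, against 6.47% of all genes), without passing the test. In 0 of the 11 did it lie above (against 6.21%). At an unadjusted edgeR p of 0.05, 2 of the 11 were lower (against 2.93%) and 0 higher (against 4.13%).

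Among 18 complement components and regulators 0 passed (median -0.007). C5ar1, the receptor for the complement fragment C5a, was at 0.135, 0.135 and 0.313 CPM against 0.630, 0.800 and 0.476 CPM, without overlap, on 4 to 27 counts (log2 fold change 1.69, SE 0.45, edgeR adjusted p = 0.496). The protease gene C1ra, whose product associates with C1q, had a log2 fold change of 0.97 on 5 to 17 counts (edgeR adjusted p = 0.731). The central component gene C3 was at 0.18. Of 16 inflammatory genes only 6 were tested, with a median of 0.464 and 0 passing. Ptgs2, the inducible cyclooxygenase, was at 0.484, 0.370 and 0.456 CPM against 0.946, 2.93 and 0.374 CPM (1.71, SE 0.65, edgeR adjusted p = 0.646), and Ccl3 at 1.44. In both, null replicate 4 was highest, as it was for Cd14, and null replicate 10 (0.374 CPM of Ptgs2 and 0.102 CPM of Ccl3) lay at the low end of the 6 libraries. The inflammatory list deviated by -0.23, -0.21 and -0.10 in heterozygous libraries and by 0.19, 0.77 and -0.42 in those labelled null.

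Among markers of other blood cells, those of lymphocytes and neutrophils were low, while the other lists held genes at higher levels. The 9 lymphocyte genes in the table summed to 0.646 to 1.42 CPM, and none was tested. The 9 neutrophil genes summed to 1.20 to 2.76 CPM, except in null replicate 4, where they reached 6.13 CPM. There S100a8 and S100a9 had 38 and 82 counts, against 6 to 17 and 5 to 23 elsewhere (log2 fold changes 1.18 and 1.43, edgeR adjusted p = 0.730 and 0.772). The classical monocyte genes Ccr2 and Ly6c2 had at most 4 counts and 1 count in a library. The whole list of 8 monocyte genes summed to 293 to 452 CPM, of which Vcan, at 163 to 284 CPM (log2 fold change 0.36), and Fn1, at 103 to 193 CPM (0.13), took most; both are made by brain cells too. Among mast cell genes Cpa3 had 4 to 26 counts (-0.88), and Kit, also made by neurons, was at 64.6 to 79.7 CPM (0.11). The platelet genes Ppbp and Gp9 had at most 10 and 2 counts, whereas Gp1bb was at 17.9 to 24.7 CPM and Itga2b at 5.64 to 8.45 CPM, and neither passed (log2 fold changes -0.17 and -0.29). The 7 platelet genes together summed to 29.7 to 39.2 CPM. The 6 adult globin symbols were listed at 0 in every library, while the erythroid genes Alas2, at 4.77 to 9.93 CPM (-0.34), and Slc4a1, at 0.242 to 1.37 CPM (-0.64), were detected and did not pass. How reads that match several near-identical genes were counted is not given, so nothing is read from the zeros of the globins.

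**Figure D5:**
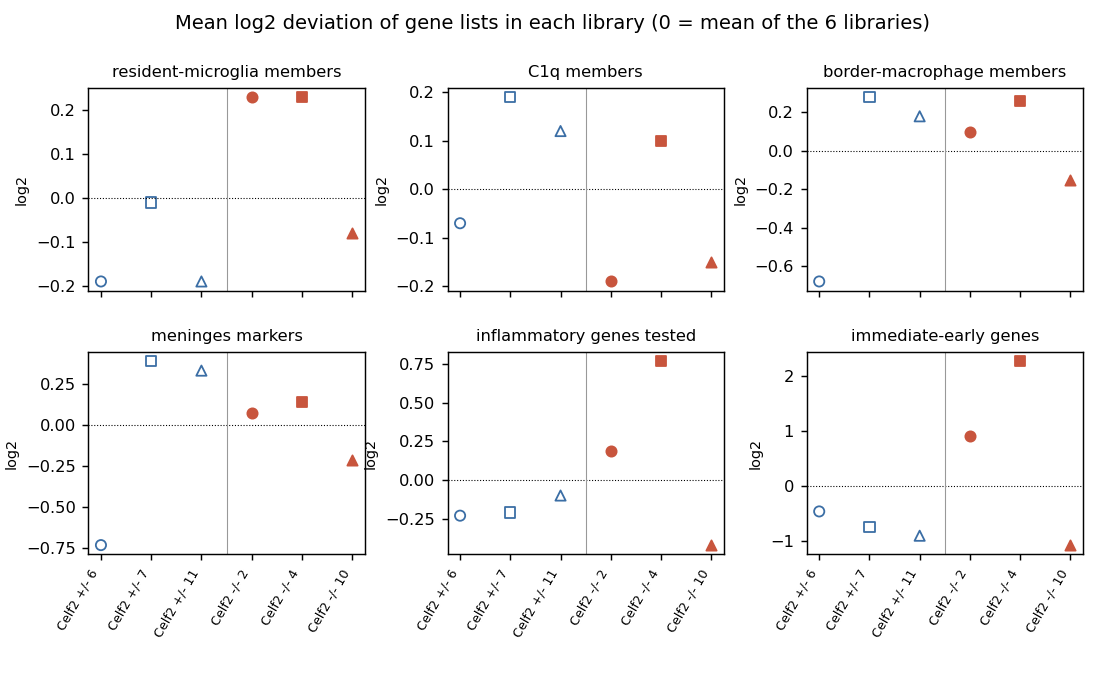
Mean log2 deviation of 6 gene lists from their mean over the 6 libraries, by library, with a separate vertical scale in each panel. The border-macrophage and meninges lists are both lowest in heterozygous replicate 6 (-0.68 and -0.73), and the inflammatory and immediate-early lists are both highest in null replicate 4 (0.77 and 2.27).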

How the data were processed

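RNA of 6 newborn hemibrains had been sequenced. The authors deposited raw counts, as whole numbers, for each gene symbol, beside the length of its gene model in bases, from which CPM per kilobase was computed. Per the labels' protocols, libraries were made from TRIzol RNA with a stranded total-RNA kit, whereas the series' design text names poly(A) RNA; which is right is not known. Per the submitters' processing notes, the tools were STAR, cutadapt, CASAVA, MACS2, bedtools and Picard and the builds hg19 and mm9, without versions or roles; how reads were counted, and on which strand, is not given in the sources used. All pairs of libraries differed by more than sampling noise (smallest chi-square per gene 13.5).

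Genes were kept by filterByExpr with default settings, which left 15925. The quasi-likelihood test was that of edgeR (version 4.0.16, under R 4.3.3; TMM factors, robust dispersion, Benjamini-Hochberg adjustment over all genes, threshold 0.05). Standard errors were derived from the F statistic (log2 fold change over its square root). The biological coefficient of variation was 13.9%. List deviations use log2 of CPM plus 0.1. On simulated counts for null against heterozygous (15811 genes), the test found 50 of 100 genes with a 1.5-fold change and 88 of 100 with a 2-fold change, and made 13 false calls. The changed genes had been drawn only from those with a mean count of at least 50. Recovery at lower counts, such as those of P2ry13 and Cd14, was therefore not measured. Many genes were changed at once there, so the adjusted threshold was easier to reach than in the data, where 1 of 15925 genes passed. Each gene was also drawn independently, without shifts shared by the genes of a library. The shares found are therefore not the chance of finding such a change in a member.

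Members and lists were chosen with earlier results of these data known. All members are described; from each other list the 2 tested genes with the smallest p are named. Symbols missing from the table were looked up by synonym. Promoter sequences are RefSeq's (GRCm38.p6), matched by symbol; because that build differs from those in the notes, it served for sequence, names and gene order only. Alternatives were other scalings (size factors of DESeq2, upper quartile, none beyond library size), no filter on low counts or a CPM of at least 1 in 3 libraries, the DESeq2 1.42.0 Wald test, limma-voom (limma 3.58.1), no robust dispersion, a Y-linked covariate, removal of structural RNAs, leaving out each library and, chosen after seeing the data, leaving out null replicate 2 with heterozygous replicate 7.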

Additional observations from a re-analysis of the deposited data

How the results depend on the processing

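No member passed in any of the 17 alternatives run (0 higher and 0 lower in each), the DESeq2 Wald test among them; the CPM minimum left Cd14 untested. The number of members higher at an unadjusted p of 0.05, 1 with all libraries, was 0 with library size alone, the DESeq2 Wald test or the Y-linked covariate and 0 to 2 without single libraries. The gene changed with the library left out: it was Cx3cr1, P2ry12, P2ry13 or Cd14, and never Siglech, the 1 with all libraries. C1qa was lower at that level without null replicate 4 (-0.33). The median log2 fold change of the members lay between -0.065 (without null replicate 4) and 0.170 (without heterozygous replicate 7) when single libraries were left out, and it was -0.043 with library size alone, where the median of all genes was -0.086, and -0.025 with the Y-linked covariate. Siglech, P2ry12, P2ry13, Gpr34, Cx3cr1, Itgam, Csf1r and Ctss kept a positive fold change, and the 3 C1q genes, Trem2, Ly86 and Lgmn a negative one, in all 17, and each of the other 16 members changed sign in at least 1 alternative. Over all genes, the number called lower was 0 with DESeq2 size factors, the CPM minimum, limma-voom, no robust dispersion or structural RNAs removed, 2 with upper-quartile factors, library size alone or no low-count filter, 10 with the Y-linked covariate, 25 with DESeq2, 4 without null replicate 2 and heterozygous replicate 7, and 0 to 1 without single libraries. The number called higher was 39 with DESeq2, 1 with no low-count filter, 1 without that pair of libraries and 0 to 3 without single libraries. The causes were not tested. No paired analysis was possible because the groups share no replicate number. Counts were low for some members, since 7 of the 30, P2ry13 and Cd14 among them, had under 50 counts in some library. For Cd14 there was also 1 outlying library, null replicate 4. What set the widths of the intervals was not tested.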

Other observations

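Other cell types were measured in the same libraries. Of 10 endothelial genes 0 passed (median log2 fold change -0.033), with the smallest p for the growth factor receptor Kdr, at 41.1, 42.7 and 38.9 CPM in heterozygous libraries and 58.9, 59.3 and 42.5 CPM in libraries labelled null (0.39, edgeR adjusted p = 0.570), and for Ly6c1 (-0.47). Of 8 astrocyte and radial glia genes 0 passed (median -0.145), with Aldoc at -0.36 and the water channel gene Aqp4 at -0.53 (edgeR adjusted p = 0.639 and 0.707). Of 8 neuronal genes 0 passed (median -0.067), with the neurofilament gene Nefl at -0.45 and the migration gene Dcx at 0.14. Of 8 meningeal genes 0 passed (median -0.045), with Ptgds at -0.39 and Slc6a13 at -0.13.

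Of 8 tested Hox genes all had negative fold changes, and 0 passed, with Hoxb2 at -2.93 (edgeR adjusted p = 0.438) and Hoxa2 at -1.97. In 6 of the 8 every library labelled null lay below every heterozygous library (against 6.47% of all genes). Of 12 immediate-early genes 0 passed, with Fosl2 at 0.82 (edgeR adjusted p = 0.213) and Egr1 at 3.26. Rn45s had a log2 fold change of 3.07 and Rmrp one of 3.27, and the Y-linked genes Uty and Eif2s3y -1.22 and -1.18.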
